A study of Mus musculus with 36 samples.

Results

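The genes described here encode the synaptic vesicle and the machinery that releases it. The list holds 41 genes of the 18193 that the arrays represented by at least 1 probe set with a single gene symbol. Each gene was read from its probe set with the highest mean over all 36 arrays. The rule that chose the members names functions and uses no measured value, but the list was drawn up with earlier results of these data known. The RNA was taken from cerebellum and forebrain of 3 mouse lines labelled stg, tg and lh. Each line had a -/- and a +/+ group in both tissues, which made 12 groups of 3 arrays. These are the usual symbols of stargazer (Cacng2), tottering (Cacna1a) and lethargic (Cacnb4), calcium channel mutants with ataxia and absence seizures. The full names are not in the labels, and the age, sex and strain background of the groups were not used here. The only treatment the labels name is sacrifice, in both genotypes. In these mutants the change is germline and not limited to a cell type, and bulk RNA was measured. The comparisons ask whether release genes differ with each mutation, and how cerebellum and forebrain differ in +/+ mice.

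A presynaptic terminal stores transmitter in vesicles, docks and primes them at the active zone, and fuses them with the plasma membrane when calcium enters through voltage-gated channels. SNARE proteins on the vesicle and on the plasma membrane pull both membranes together, and several synaptotagmins and Doc2 proteins sense calcium. RIM, Munc13, ELKS, Bassoon and Piccolo organise the release site next to the channels. Many of these proteins come in paralogs that different neurons use in different mixtures, which sets how fast and how reliably a synapse releases.

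Promoter sequence is shown for the members that changed in the cerebellum of stg -/- mice and that have an entry in the RefSeq promoter table used here (mouse assembly GRCm38.p6). Each line gives the 250 bases before the first annotated start of the gene, 5′ to 3′ on the gene's strand. Capitals mark GC boxes, the motif GGGCGG on either strand. Slc17a6 lies on the plus strand at chr7:51621580-51621829 and Synpr on the plus strand at chr14:13284530-13284779. Rims1 lies on the minus strand at chr1:22806159-22806408 and Rab3c on the minus strand at chr13:110280207-110280456. Doc2b is named only.
Slc17a6: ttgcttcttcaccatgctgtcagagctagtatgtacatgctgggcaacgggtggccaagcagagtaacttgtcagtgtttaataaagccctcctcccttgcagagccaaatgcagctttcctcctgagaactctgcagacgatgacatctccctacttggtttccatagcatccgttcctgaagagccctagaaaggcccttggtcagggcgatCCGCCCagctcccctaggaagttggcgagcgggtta
Synpr: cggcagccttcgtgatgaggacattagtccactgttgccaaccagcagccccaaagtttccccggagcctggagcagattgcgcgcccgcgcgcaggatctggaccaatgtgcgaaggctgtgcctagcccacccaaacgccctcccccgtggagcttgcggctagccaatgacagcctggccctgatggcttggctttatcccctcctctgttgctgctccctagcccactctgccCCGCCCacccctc
Rims1: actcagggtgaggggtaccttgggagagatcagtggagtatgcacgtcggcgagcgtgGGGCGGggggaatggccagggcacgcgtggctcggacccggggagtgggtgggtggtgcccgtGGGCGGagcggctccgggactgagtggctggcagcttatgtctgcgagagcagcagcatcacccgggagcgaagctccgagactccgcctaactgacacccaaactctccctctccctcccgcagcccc
Rab3c: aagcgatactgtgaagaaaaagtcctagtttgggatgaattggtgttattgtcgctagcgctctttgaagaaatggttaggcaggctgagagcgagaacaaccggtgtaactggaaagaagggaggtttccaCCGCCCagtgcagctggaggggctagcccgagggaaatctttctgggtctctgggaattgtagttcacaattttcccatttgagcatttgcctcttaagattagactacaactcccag
The 4 windows hold 1, 1, 2 and 1 GC boxes in that order, so members that rose and members that fell both carry them. The second windows of Slc17a6 and Synpr hold 0. Over the whole list, 30 members had a window and gave 41 windows, of which 24 (58.5%) held a GC box. Of all 32851 windows in the table, 32.7% did. The member windows were also richer in G and C, with a median of 59.6% against 52.4%. The motif TATAAA was found in 2 member windows (4.88%) against 12.4% of all, CCAAT in 12 (29.3%) against 33.8%, and TGACG, the core of the cyclic AMP response element, in 7 (17.1%) against 17.8%. The consensus motif of NRF1 was found in 4 (9.76%) against 3.74%, those of Bsn, Nsf, Pclo and Syp. TCAGCACC, the left part of the REST element, was found in 1 (2.44%), that of Syn1, against 1.32%, and the right part of that element in 0 against 0.0974%. Both strands were searched and overlapping matches of different motifs were each counted. These matches describe letters in the windows.

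The deposited values were linear signals scaled to a common trimmed mean, and all log2 values below are log2 of the signal plus 2.98. Array medians on this scale ran from 5.39 to 5.72. The targeted gene checked the stg labels: Cacng2 ran from 473 to 841 in stg+/+ cerebellum and from 2.43 to 4.72 in stg-/- cerebellum, a log2 change of -6.51. Cacnb4 changed by -1.08 in lh forebrain (adjusted p = 0.0285) and by -0.61 in lh cerebellum (adjusted p = 0.0814). Cacna1a, which in tottering carries a missense change that leaves the transcript in place, changed by 0.13 in tg cerebellum and checks no label. Tissue labels were compared with markers: 10 of 10 granule cell markers and 9 of 9 Purkinje cell markers tested were higher in cerebellum, and 8 of 8 forebrain markers were lower. Markers that passed the filter only through the tissue where they are high, some forebrain markers among them, had to differ that way. Summed without the filter, 9 forebrain markers ran from 585 to 720 in stg+/+ cerebellum and from 4520 to 4717 in stg+/+ forebrain. The pituitary genes Gh and Prl were high on 3 forebrain arrays, stg+/+ replicates 1 and 2 and lh+/+ replicate 3, with Prl from 2086 to 6052 against at most 297 on any other array. The forebrain array tg+/+ replicate 2 had the lowest mean correlation with the other arrays of its tissue (0.943). The members were bright genes: the median of their mean signals was 1139, against 130 for all probe sets tested.

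Between the tissues of +/+ mice the release genes moved in both directions. Of the 40 members tested, 24 were lower in cerebellum, 8 were higher and 8 did not pass. Doc2a, Stx1a and Syt5 were close to the floor in cerebellum and bright in forebrain, while Syt2, Unc13c and Doc2b were the members highest in cerebellum relative to forebrain. The 32 calls are 80% of the members tested, against 58.2% of all probe sets tested (32.4% higher and 25.8% lower), so a difference between these tissues was common everywhere. Doc2a and Syt5 had to differ, because they passed the filter only through forebrain, and their values are given as a description. Of the 38 members that passed the filter in both tissues 22 were lower and 8 higher, 78.9% against 57.1% of the probe sets that did so. The direction differed from the whole: 11 of these 38 members (28.9%) and 55.5% of those probe sets lay above 0, and the medians were -0.37 and 0.06. All 32 called members had the same sign in each of the 3 lines, but they were called on the mean of these lines, which favours agreement. Of them 23 passed in every line taken alone, Doc2a and Syt5 included. The shares of all probe sets that passed in a single line were 37.9% (stg), 36.9% (tg) and 34.3% (lh). The share that passed in all 3 lines was not computed, so the 23 has no like share beside it. In bulk tissue fewer cells of a type and less RNA per cell cannot be told apart, here and in every comparison below. The member left out, Sv2c, a vesicle glycoprotein, fell under the signal filter in every fit, with signals from 11.1 to 52.0 in +/+ cerebellum and from 15.3 to 32.7 in +/+ forebrain.

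Of the 9 synaptotagmin and Doc2 genes, drawn below under the label calcium sensors, 3 were higher in cerebellum and 5 lower. The 5 include Doc2a and Syt5, whose direction was fixed by the filter. Syt2, a fast synaptotagmin of hindbrain synapses, had signals from 720 to 957 with a median of 835 in the 9 +/+ cerebellum arrays, and from 161 to 337 with a median of 183 in the 9 forebrain arrays. The ranges did not overlap, and the log2 difference was 2.0 (SE 0.12, 4.01-fold, adjusted p = 1.15e-15). Its close relative Syt1, the fast sensor of forebrain synapses, went the other way, from 2650 to 3611 (median 2902) in cerebellum against 5232 to 6636 (median 5779) in forebrain, a difference of -0.96 (SE 0.05). Doc2b, a high-affinity calcium sensor linked to spontaneous and delayed release, ran from 417 to 595 (median 505) in cerebellum and from 156 to 224 (median 187) in forebrain, a difference of 1.45 (SE 0.06, adjusted p = 1.63e-19). Its paralog Doc2a was at the floor in cerebellum, with signals from 0.754 to 10.5 (median 1.6), and at 151 to 241 (median 186) in forebrain. Its log2 difference of -5.15 depends on the added constant, because the cerebellum values lie near it, and has no test of its own here. Thus the Syt1 and Syt2 pair split between the tissues, with 1 gene higher on either side. Because Doc2a passed the filter only through forebrain, a split of the Doc2 pair was not tested. Syt5 ran from 2.38 to 40.3 (median 25.3) in cerebellum and from 267 to 383 (median 315) in forebrain, a difference of -3.94 that is likewise set by the floor and carries no test. Syt4, a synaptotagmin found mainly on dense-core and postsynaptic vesicles, ran from 1629 to 1850 (median 1716) in cerebellum and from 853 to 1224 (median 974) in forebrain, 0.81 (SE 0.05) higher. Syt11 (-0.63) and Syt13 (-0.29) were lower in cerebellum, and Syt7, a slow sensor, did not pass (0.14, adjusted p = 0.107), although a dimmer probe set did (0.40).

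Among SNARE proteins and complexins, Stx1a stood out. This plasma membrane syntaxin ran from 12.8 to 60.5 (median 45.6) in cerebellum and from 1386 to 1841 (median 1494) in forebrain, a difference of -5.14. It passed, and the ranges did not overlap, but the cerebellum signals are near the floor, so the size of the difference depends on the added constant. The other probe set gave -4.83, but it was under the filter in cerebellum, so its direction was fixed by the filter. Its partner Snap25 did not pass (0.09, SE 0.06), nor did Vamp1 (-0.12, SE 0.09), of which a dimmer probe set passed at -0.37. Vamp2, the main vesicle SNARE of the forebrain, was lower in cerebellum by -0.42 (SE 0.10). The complexins, which clamp and promote fusion, split: Cplx1 was lower (-0.32, SE 0.06) and Cplx2 slightly higher (0.19, adjusted p = 0.0450). Most of the Cplx2 difference came from tg (0.44), with 0.05 in stg and 0.08 in lh. Its other probe sets gave 0.24, which passed, and 0.07, which did not. Nsf, the ATPase that takes used SNARE complexes apart, and Napb, its beta-SNAP adaptor, were lower by -0.69 and -0.58, and the vesicle chaperone Dnajc5 did not pass (-0.02), while 2 of its 4 dimmer probe sets did (-0.13 and -0.31).

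The active zone and priming genes held 4 higher and 5 lower members. Unc13c, the Munc13-3 priming factor of cerebellar granule cell terminals, ran from 1510 to 1862 (median 1633) in cerebellum and from 565 to 696 (median 589) in forebrain, a difference of 1.45 (SE 0.06, adjusted p = 2.44e-20). Unc13b, its paralog, ran from 41.6 to 96.0 (median 79.1) in cerebellum and from 187 to 267 (median 211) in forebrain, a difference of -1.53 (SE 0.11, adjusted p = 4.38e-13), and Unc13a was lower by -0.74 (SE 0.12). The ELKS pair split as well. Erc2 ran from 151 to 254 (median 200) in cerebellum and from 913 to 1182 (median 946) in forebrain, a difference of -2.30 (SE 0.06, adjusted p = 4.51e-24). Erc1 ran from 197 to 347 (median 255) in cerebellum and from 129 to 172 (median 154) in forebrain, a difference of 0.73 (SE 0.08, adjusted p = 7.69e-10). Rims2, a RIM scaffold that ties channels to vesicles, ran from 1331 to 2051 (median 1712) in cerebellum and from 642 to 1096 (median 900) in forebrain, a difference of 0.99 (SE 0.10, adjusted p = 4.33e-10). Rims1 was higher by 0.22 (adjusted p = 0.0295) and Rims3 did not pass (0.08), although a dim probe set did (0.68, mean signal 44.7). Bsn was lower by -0.43. Pclo was lower by -0.31 with the probe set used, but its other probe sets were higher by 1.28 and 1.25, and all 3 passed, so the direction for Pclo depends on the probe set.

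The remaining groups were lower in cerebellum or did not pass. All 3 synapsins, which tether vesicles in the reserve pool, were lower: Syn1 by -1.15 (SE 0.08), Syn2 by -0.73 and Syn3 by -0.65. Of the vesicle membrane proteins Syp (-0.42), Sv2b (-0.48) and Synpr (-0.72, SE 0.16) were lower, and Sv2a did not pass (-0.02). Synpr, the synaptophysin relative synaptoporin, overlapped between tissues because tg+/+ forebrain replicate 2 read 301 where the other 8 forebrain arrays read 917 to 1374. Rab3c, a vesicle GTPase, was lower by -0.85 (SE 0.04). Rab3a varied more than most members, from 868 to 3672 in cerebellum, and did not pass (-0.29, SE 0.28), while its other probe set did (-0.36, adjusted p = 0.000215). Rph3a, the Rab3 effector, did not pass (-0.06). Both vesicular glutamate transporters were lower. Slc17a6, the transporter VGLUT2 of thalamic, brainstem and climbing fibre terminals, ran from 124 to 182 (median 142) in cerebellum and from 874 to 1048 (median 973) in forebrain, a difference of -2.73 (SE 0.07, 6.62-fold, adjusted p = 1.07e-24). Slc17a7, VGLUT1 of cortical and granule cell terminals, ran from 528 to 754 in cerebellum and from 801 to 1301 in forebrain, a difference of -0.65 (SE 0.11).

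**Figure D1:**
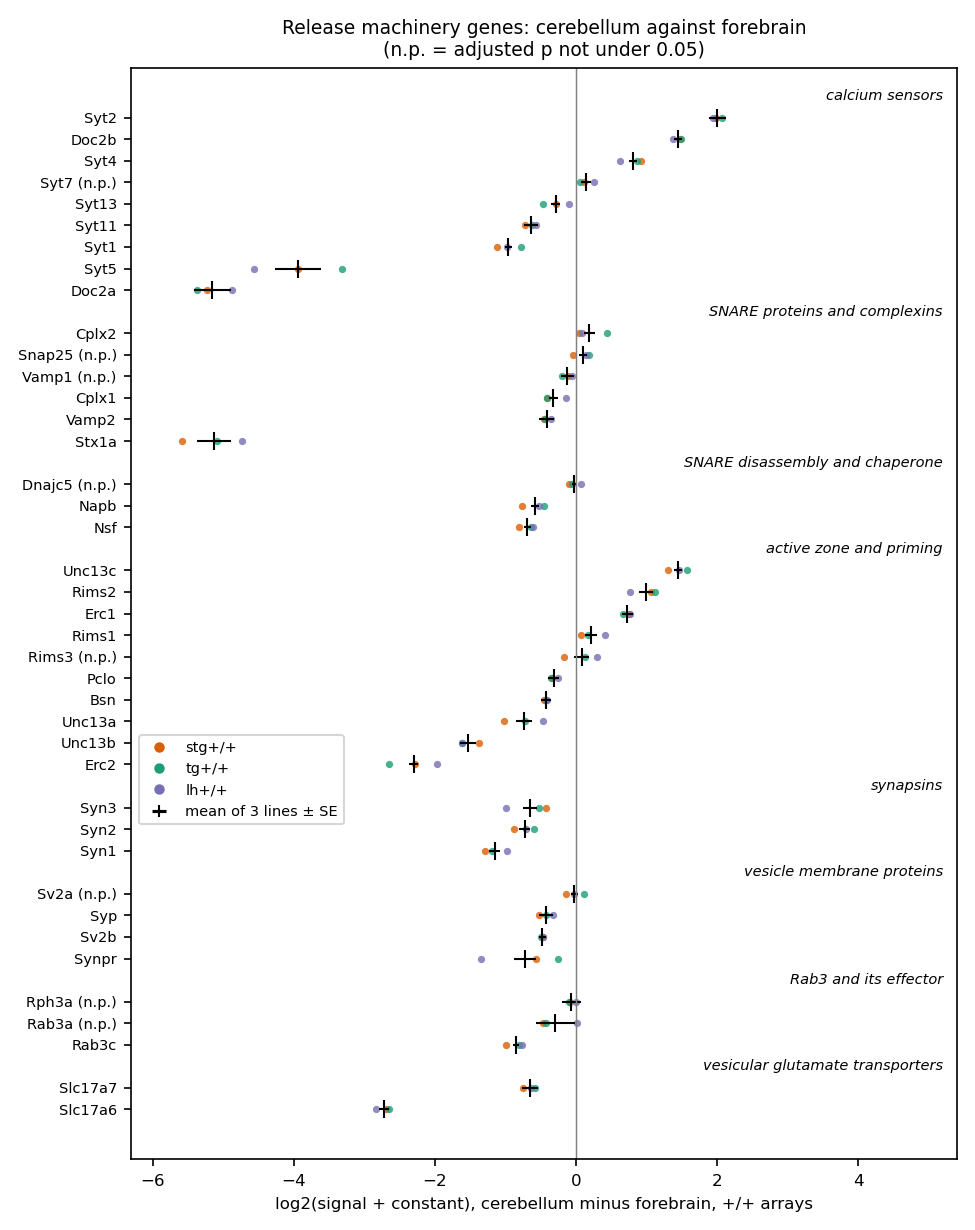
Difference between cerebellum and forebrain in +/+ arrays for the 40 members tested, by role. The horizontal axis is cerebellum minus forebrain in log2(signal + constant). Coloured points are the 3 lines, each the mean of 3 arrays against 3, and black crosses are the mean of the lines with its SE. Doc2a, Stx1a and Syt5 lie between -5.15 and -3.94, and Syt2, Unc13c and Doc2b lie at 2.0, 1.45 and 1.45.

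Other probe sets bear on these readings, since 32 members had more than 1 and the 41 members had 108 in all. For the tissue difference 50 of 57 other probe sets had the sign of the one used. Of 38 pairs in which both passed 36 had the same sign, with Pclo the exception. The Stx1a pair counts among the 36, although the direction of its other probe set was fixed by the filter. No level is compared between genes here, because probe sets differ in brightness.

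In the cerebellum of stg -/- mice 5 of 38 members tested changed against stg+/+ in the unpaired fit. These are 13.2%, against 1.3% of all probe sets (0.525% higher and 0.777% lower). A fit blocked on replicate pairs is given further below. The transporter Slc17a6, the vesicle protein Synpr and the calcium sensor Doc2b rose, and the GTPase Rab3c and the scaffold Rims1 fell. A further 12 members had an unadjusted p under 0.05 without passing, which made 17 in all (44.7%), against 10.7% of all probe sets at that threshold. Both directions were present: 16 of 38 lay above 0 and the median was -0.09, against 0.01 for all probe sets tested. The 3 -/- arrays lay wholly above the 3 +/+ arrays for 7 members and wholly below for 10. Together these are 44.7% of the members, against 15.6% of all probe sets. Syt5, Doc2a and Sv2c were under the filter in cerebellum and were not tested in any line.

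Slc17a6 read 173, 128 and 142 in stg+/+ cerebellum and 251, 247 and 329 in stg-/- cerebellum. Every -/- array lay above every +/+ array, and all 6 stayed far below the forebrain arrays of this gene, which ran from 849 to 1112 over both genotypes. The log2 change was 0.88 (SE 0.15, 1.84-fold, adjusted p = 0.00376), and the other probe set of the gene gave 0.76 (adjusted p = 0.0220). Its counterpart Slc17a7 lay at -0.46 (SE 0.18, adjusted p = 0.306). Synpr read 695, 622 and 765 in stg+/+ and 1533, 1057 and 1175 in stg-/-, with no overlap. Its change was 0.84 (SE 0.16, adjusted p = 0.00685), from the single probe set of the gene. Without stg-/- replicate 1, the highest array, the change was 0.69 (adjusted p = 0.0508).

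Doc2b read 417, 505 and 442 in stg+/+ and 736, 687 and 731 in stg-/-. The groups lay far apart relative to their spread, and the change was 0.66 (SE 0.10, 1.58-fold, adjusted p = 0.00119), while the dimmer probe set of the gene gave 0.48 (adjusted p = 0.187). Rab3c read 1162, 1054 and 1000 in stg+/+ and 786, 784 and 673 in stg-/-. It fell by 0.52 on the log2 scale (SE 0.09, adjusted p = 0.00489), and a dimmer probe set also gave -0.52 without passing. With the mean over all its probe sets Rab3c was at -0.35 (adjusted p = 0.177). Rims1 read 1152, 1489 and 1170 in stg+/+ and 990, 724 and 806 in stg-/-. It fell by 0.60 on the log2 scale (SE 0.13, adjusted p = 0.0274), and its other probe set gave -0.82 (adjusted p = 0.0186). Leaving out stg+/+ replicate 2, its highest array, left Rims1 at -0.48 (adjusted p = 0.139), without stg-/- replicate 2 it was at -0.50 (adjusted p = 0.136), and without stg-/- replicate 3 at -0.57 (adjusted p = 0.108).

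By role, 1 of 7 synaptotagmin and Doc2 genes rose and 1 of 10 active zone and priming genes fell. Of the vesicle membrane proteins 1 of 4 rose, as did 1 of the transporter pair. Of the 3 genes of Rab3 and its effector 1 fell. In the unpaired fit no SNARE protein, complexin, synapsin, SNARE disassembly gene or chaperone passed, whereas the fit blocked on replicate pairs passed Vamp1, Cplx2 and Syn3 among these. Just outside the threshold of the unpaired fit, Syn3 read 176, 191 and 166 in stg+/+ and 376, 273 and 267 in stg-/- (change 0.76, SE 0.19, adjusted p = 0.0510). Syt4 lay at 0.35 (adjusted p = 0.106) with the probe set used, while its other probe set lay at -0.04. Stx1a had the largest change in size, 0.99, but its signal in cerebellum was near the floor and it did not pass (SE 0.55, adjusted p = 0.561).

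**Figure D2:**
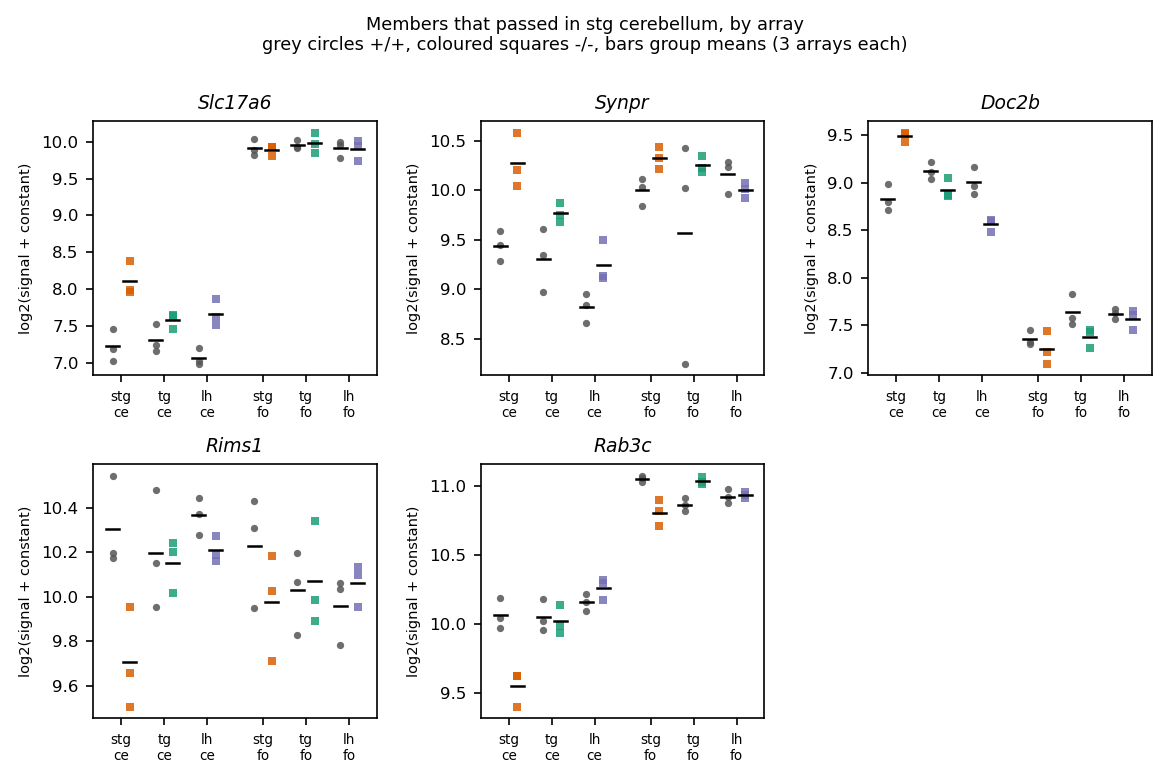
The 5 members called in stg cerebellum on each array, as log2(signal + constant), with a vertical scale of its own for each gene. The horizontal axis gives line and tissue (ce cerebellum, fo forebrain), grey circles are +/+ arrays, coloured squares -/- arrays and bars the means of 3 arrays. In stg cerebellum the -/- arrays of Slc17a6, Synpr and Doc2b lie above all +/+ arrays and those of Rab3c and Rims1 below them.

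The arrays fell into a pair of runs of consecutive records, of 20 and 16 arrays, which the labels do not call batches. Within the runs, of which the second held 1 stg array per genotype, the changes were 0.73 and 1.19 for Slc17a6, 0.95 and 0.62 for Synpr, 0.63 and 0.72 for Doc2b, -0.49 and -0.57 for Rab3c, and -0.63 and -0.54 for Rims1. The stg cerebellum numbers were read as pairs, and a fit blocked on them passed 11 members, the 5 above and Cplx2, Pclo, Slc17a7, Syn3, Syt4 and Vamp1. Number and run are partly confounded there, because replicate 3 was the stg array of the second run in both genotypes. Marker genes of cell types moved with the same contrast. The summed signal of 11 granule cell markers ran from 29166 to 33958 in stg+/+ and from 27053 to 28068 in stg-/-, with 3 of 10 tested above 0, and Gabra6 fell. Purkinje cell markers had 9 of 9 above 0 and summed from 36838 to 46661 in stg+/+ and from 47817 to 52857 in stg-/-. Forebrain markers, with 9 probe sets, summed from 585 to 720 and from 721 to 886, with 2 of the 4 tested above 0, and in stg+/+ forebrain they summed from 4520 to 4717. Microglia markers summed from 935 to 1070 and from 1084 to 1280, with 7 of 7 tested above 0. Thalamus, midbrain and brainstem markers, with 18 probe sets, summed from 6037 to 6236 and from 6538.5 to 7151, although 3 of the 9 tested lay above 0 and Ntng1 fell. Astrocyte markers summed from 19212 to 22014 and from 22621 to 22859, with 6 of 8 above 0, and Gfap rose. Interneuron, unipolar brush cell, oligodendrocyte and pituitary sums overlapped. The part of these cell types in the changes of the release genes was not tested.

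In the cerebellum of tg -/- mice 0 of 38 members passed in limma's test, against 0.574% of all probe sets, and 6 (15.8%) had an unadjusted p under 0.05, against 7.28% of all probe sets. With the mean over the probe sets of each gene, 1 passed, Cplx2. Its probe sets differed in size: the probe set used lay at -0.29 and the others at -0.30 and -1.12, and none passed alone. The smallest p-values belonged to Unc13c, Synpr and Syt2. Unc13c read 1862, 1647 and 1774 in tg+/+ and 1262, 1437 and 1437 in tg-/-, a change of -0.35 (SE 0.11, adjusted p = 0.221). Synpr read 498, 778 and 646 in tg+/+ and 861, 931 and 818 in tg-/-, a change of 0.46 (SE 0.16, adjusted p = 0.345). Syt2 lay at -0.25 (SE 0.10, adjusted p = 0.450). None of these groups overlapped. Above 0 lay 14 members, with a median of -0.06 against -0.01 for all probe sets, and for 18.4% of members the groups did not overlap, against 14% of all. Marker sums that did not overlap between tg+/+ and tg-/- were those of microglia (961 to 1185 and 1310 to 1597, with C1qc up), interneurons (6473 to 6891 and 7350 to 7979) and unipolar brush cells (5345 to 5923 and 4390 to 4694). Their part in these values was not tested.

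In the cerebellum of lh -/- mice 0 of 38 members passed, against 0.155% of all probe sets, and 14 (36.8%) had an unadjusted p under 0.05, against 7.62% of all probe sets. Syt2 read 817, 868 and 904 in lh+/+ and 632, 687 and 576 in lh-/-, a change of -0.45 (SE 0.10, adjusted p = 0.0656). Doc2b read 571, 496 and 470 in lh+/+ and 387, 386 and 355 in lh-/-, a change of -0.44 (SE 0.10, adjusted p = 0.0971). This is opposite in sign to its rise in stg, but the dimmer Doc2b probe set lay at only -0.09 in lh. Slc17a6 read 127, 124 and 144 in lh+/+ and 179, 193 and 231 in lh-/-, a change of 0.60 (SE 0.15, adjusted p = 0.160). Unc13c read 1633, 1741 and 1553 in lh+/+ and 1328, 1391 and 1030 in lh-/-, a change of -0.40 (SE 0.11, adjusted p = 0.170). Each of these groups was apart from its control. The list lay low: 10 of 38 members (26.3%) were above 0, against 53.9% of all probe sets, and the median was -0.12 against 0.02. For 3 members the -/- arrays lay wholly above and for 11 wholly below the +/+ arrays, 36.8% of the members against 12.7% of all probe sets. Among active zone and priming genes 9 of 10 lay below 0, with Rims3 at -0.50, Erc2 at -0.39, Bsn at -0.33 and, as the exception, Unc13b at 0.53. The summed granule cell markers ran from 32315 to 34612 in lh+/+ and from 27441 to 28194 in lh-/-. Unipolar brush cell markers summed from 5304.5 to 6201 and from 3943 to 4435, with Calb2 down, and microglia markers from 940 to 971 and from 1197 to 1240. The part of these cell types was not tested, and the other marker sums overlapped.

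**Figure D3:**
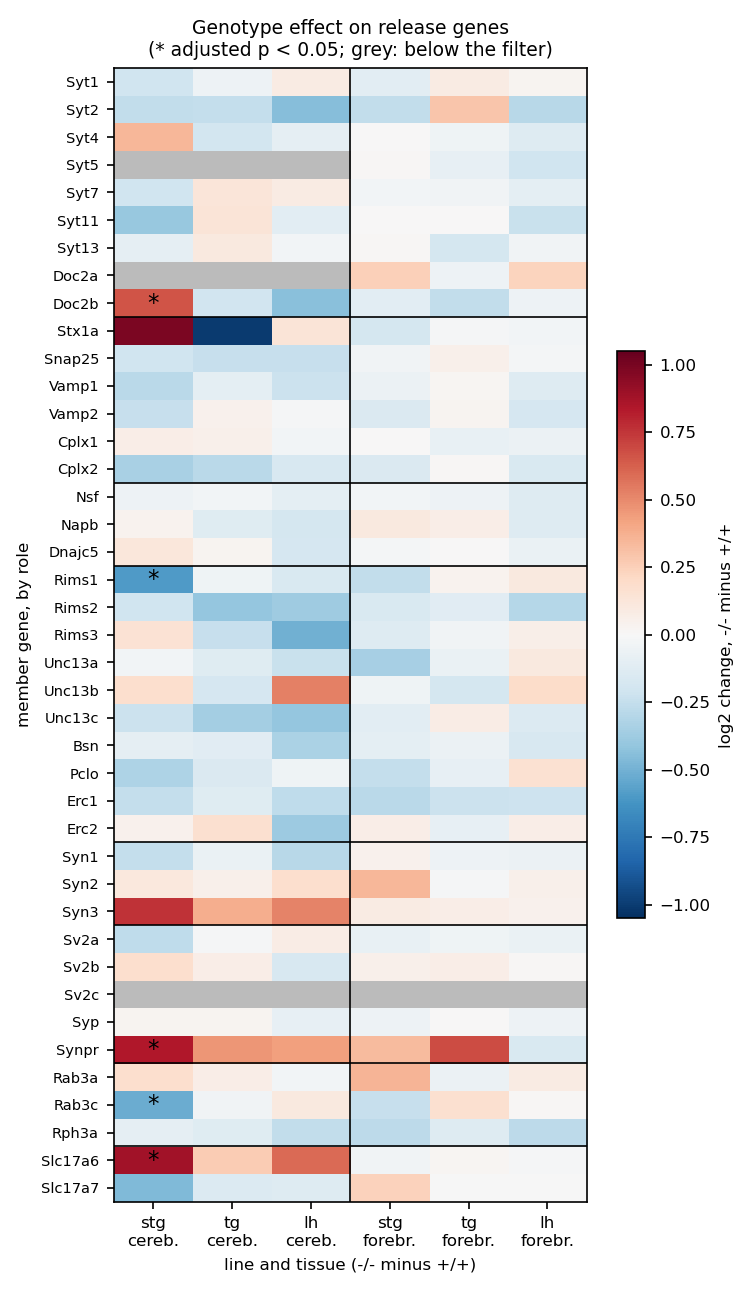
Log2 change of each member, -/- minus +/+, in each line and tissue, by role. Colour runs from blue (lower in -/-) to red (higher in -/-), grey marks members under the filter and asterisks an adjusted p under 0.05. In cerebellum Slc17a6, Syn3 and Synpr are above 0 in all 3 lines and Syt2, Unc13c and Snap25 below 0 in all 3, while Doc2b is at 0.66 in stg and -0.44 in lh.

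The mean effect of the 3 lines in cerebellum asks what the mutants share. Of 38 members, 6 passed (15.8%, against 1.97% of all probe sets, 1.04% higher and 0.933% lower). Slc17a6 (0.58, SE 0.09, adjusted p = 0.000969), Synpr (0.58, SE 0.09, adjusted p = 0.00149) and Syn3 (0.55, SE 0.11, adjusted p = 0.00872) rose. Syt2 (-0.32, SE 0.06, adjusted p = 0.00327), Unc13c (-0.33, SE 0.06, adjusted p = 0.00585) and Snap25 (-0.23, SE 0.05, adjusted p = 0.0293) fell. The tissue differences of these 6 members in +/+ mice, which rest on the same +/+ cerebellum arrays, were -2.73, -0.72, -0.65, 2.0, 1.45 and 0.09 in that order. The mean effect lay above 0 for 12 members (31.6%), against 51.7% of all probe sets, and the median was -0.07 against 0.01. Marker genes passed in the same contrast: the microglia genes C1qa, C1qb and C1qc, the astrocyte genes Gfap and Gja1, the oligodendrocyte gene Mobp and Th were higher, and the granule cell genes Gabra6 and Neurod1, Calb2 and Ntng1 were lower. Their part was not tested.

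The single arrays carry these means. Slc17a6 read 140, 149 and 182 in tg+/+ cerebellum and 173, 198 and 196 in tg-/-, the only line in which its groups overlapped. Synpr read 454, 400 and 493 in lh+/+ and 557, 721 and 550 in lh-/-, so its -/- arrays lay above its +/+ arrays in each line. Syn3, a synapsin found early in development and in selected adult neurons, read 166, 130 and 136 in tg+/+ and 190, 172 and 200 in tg-/-. In lh it read 164, 117 and 96.6 in +/+ and 224, 152 and 163 in -/-, with 1 +/+ array above the lowest -/- arrays. Another Syn3 probe set passed as well, at 0.47 (adjusted p = 0.0265).

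Syt2 read 836, 957 and 835 in stg+/+ and 818, 685 and 697 in stg-/-, and 804, 720 and 789 in tg+/+ and 675, 649 and 618 in tg-/-. With the lh arrays above, its -/- arrays lay below the +/+ arrays in every line. Unc13c read 1510, 1526 and 1530 in stg+/+ and 1450, 1200 and 1268 in stg-/-, and it too was apart in every line. A second Unc13c probe set passed at -0.29 (adjusted p = 0.00424), while the other Syt2 probe sets lay at -0.32 and -0.23 without passing. Snap25 read 9976, 9820 and 8410 in stg+/+ and 7930, 7954 and 8500 in stg-/-. In tg it read 10145, 10385 and 11037 in +/+ and 8158, 8648 and 9958 in -/-, and in lh 10474, 10296 and 10405 in +/+ and 9254, 7830 and 9286 in -/-. Its mean change of -0.23 was the smallest in size among the members called for the mean effect. Its groups overlapped in stg but not in tg or lh. Snap25 no longer passed when any of 10 of the 18 arrays was left out. Next in order were Cplx2 (-0.26, adjusted p = 0.0743) and Rims1 (-0.27, adjusted p = 0.0903).

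**Figure D4:**
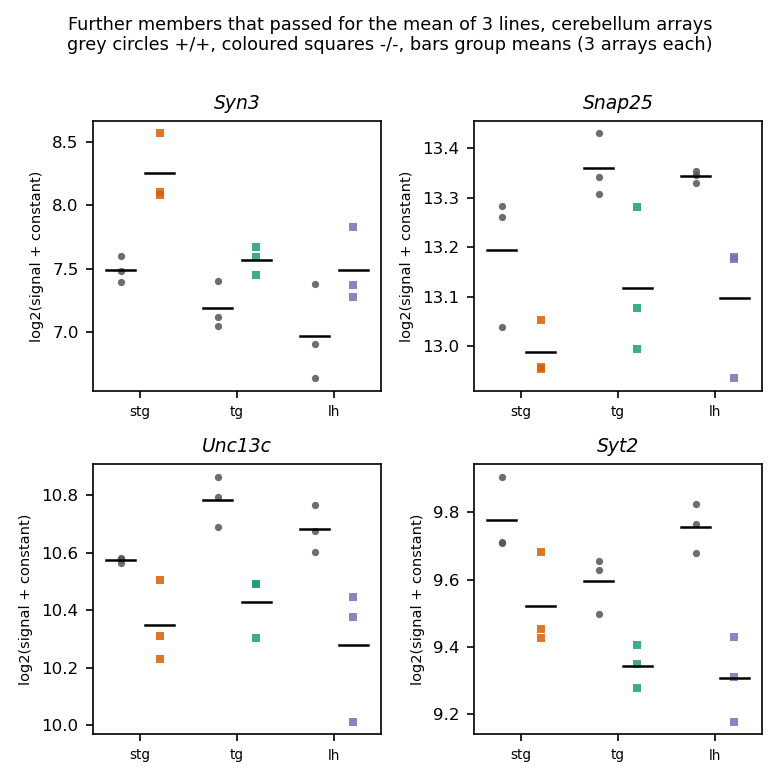
Syn3, Snap25, Unc13c and Syt2, the members called for the mean effect in cerebellum that were not called in stg alone, on each cerebellum array as log2(signal + constant), by line, with a vertical scale of its own for each gene. Grey circles are +/+ arrays, coloured squares -/- arrays and bars the means of 3 arrays: the -/- mean of Syn3 is above and those of Snap25, Unc13c and Syt2 are below the +/+ mean in all 3 lines.

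Set side by side, the lines have no arrays in common. In cerebellum 15 of 38 members (39.5%) lay below 0 in all 3 lines, against 13.5% of all probe sets, and 4 (10.5%) above 0 in all 3, against 16.3%. The 15 were Bsn, Cplx2, Erc1, Nsf, Pclo, Rims1, Rims2, Rph3a, Slc17a7, Snap25, Syn1, Syt2, Unc13a, Unc13c and Vamp1, of which 7 are active zone and priming genes. The 4 were Slc17a6, Syn2, Syn3 and Synpr. Across the 38 genes the changes correlated at r = 0.07 between stg and tg, 0.47 between stg and lh and 0.41 between tg and lh, against 0.11, 0.06 and 0.14 over all probe sets. Genes measured on the same arrays share their scaling and are not independent replicates.

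Doc2b was the member whose genotype effect differed among the lines in cerebellum (moderated F test, adjusted p = 0.00202). It is 1 of 38 members, against 0.315% of all probe sets. Its changes were 0.66 in stg, -0.20 in tg and -0.44 in lh. The dimmer Doc2b probe set lay at 0.48, -0.04 and -0.09 in that order, so the size of the fall in lh depends on the probe set. With the probe set used, the +/+ groups themselves read 417 to 505 in stg, 525 to 595 in tg and 470 to 571 in lh. They did not differ past the threshold (adjusted p = 0.398). Rab3c came next (adjusted p = 0.0858), with -0.52 in stg, -0.03 in tg and 0.10 in lh. Among the 3 +/+ groups 0 of 38 members differed in cerebellum, against 0.881% of all probe sets, and 0 of 40 in forebrain, against 0.414%. At an unadjusted p under 0.05 these counts were 8 (21.1%) and 5 (12.5%), against 10.2% and 7.06% of all probe sets. In forebrain the genotype effect differed among lines for 0 of 40, against 0.0259% of all probe sets, with 1 (2.5%) at an unadjusted p under 0.05, against 3.76%.

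The stg effect differed between the tissues for 2 of 40 members, against 0.248% of all probe sets. For Slc17a6 the effect in cerebellum exceeded that in forebrain by 0.92 (SE 0.18, adjusted p = 0.00961), and by 0.68 with its other probe set (adjusted p = 0.314). In forebrain this gene read 948, 902 and 1048 in stg+/+ and 891, 967 and 967 in stg-/-, a change of -0.03. For Doc2b the difference was 0.77 (SE 0.15, adjusted p = 0.00964), and 0.44 with its dimmer probe set (adjusted p = 0.886). It read 172, 156 and 157 in stg+/+ forebrain and 170, 134 and 146 in stg-/- forebrain, a change of -0.11. Without the 3 forebrain arrays high in Gh and Prl, which leaves 1 stg+/+ forebrain array, neither passed, at 1.04 (adjusted p = 0.0528) for Slc17a6 and 0.73 (adjusted p = 0.159) for Doc2b, values about as large as with them. In tg and lh 0 of 40 members passed, against 0.0259% and 0.0111% of all probe sets, with 2 (5%) and 4 (10%) at an unadjusted p under 0.05, against 3.51% and 4.88%.

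In forebrain none of the 40 members tested passed in any line. The shares of all probe sets that passed were 0.0111% in stg, 0.189% in tg and 0.0148% in lh, so few genes of any kind did. At an unadjusted p under 0.05 there were 4 (10%), 1 (2.5%) and 0 members, against 2.55%, 5.68% and 3.87% of all probe sets. In stg these were Rab3c, Syn2, Unc13a and Erc1. Other tested probe sets of Rab3c lay at 0.14, 0.10 and, the dimmest, -0.85, and those of Erc1 at 0.69, 0.34 and -0.42, so both directions depend on the probe set. Rab3c, with the probe set used, read 2152, 2088 and 2127 in stg+/+ forebrain and 1902, 1804 and 1670 in stg-/-. This was lower by -0.25 (SE 0.07, adjusted p = 0.99997) with no overlap, in the direction of its fall in cerebellum. The 3' to 5' difference of the Actb control probe sets, a sign of RNA quality, was also apart between these groups, at 0.84 to 1.14 in stg+/+ and 0.68 to 0.79 in stg-/-, as it was in lh forebrain (0.88 to 0.91 and 0.84 to 0.88), and its part was not tested. Syn2 read 1516, 1167 and 1525 in stg+/+ and 1962, 1823 and 1566 in stg-/-, a change of 0.35. Unc13a lay at -0.35 and Erc1 at -0.29. In tg the smallest p-values belonged to Rab3c, at 0.17 (adjusted p = 0.806), Synpr and Doc2b. Synpr lay at 0.69 (adjusted p = 0.878), where tg+/+ replicate 2 read 301 and the other +/+ arrays 1042 and 1374, and Doc2b at -0.26 (adjusted p = 0.880). In lh they belonged to Rims2 (-0.30), Syt11 (-0.23) and Erc1 (-0.22), each with an adjusted p of 0.9997. Other Erc1 probe sets lay at 0.34, 0.62 and -0.03 in lh. The mean effect of the 3 lines called 0 of 40, against 0.0148% of all probe sets, with Erc1 lowest in p at -0.24 (adjusted p = 0.789). The other Erc1 probe sets lay above 0 for this mean, at 0.28, 0.01 and 0.15. Over the members, the mean effect lay above 0 for 9 of 40 (22.5%), against 52.7% of all probe sets, with a median of -0.05. Over the 3 lines 9 members (22.5%) lay below 0 in each, against 12.1% of all probe sets.

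Other genes of release were read from a separate list of 71 genes with a probe set, which held further synaptotagmins, liprins, CAPS proteins, Rab and vesicle ATPase genes. In stg cerebellum 3 of 66 tested fell (4.55%) and 0 rose, against 0.777% and 0.525% of all probe sets. Cadps2, a CAPS protein that primes dense-core vesicles, ran from 2026 to 2430 in stg+/+ and from 1319 to 1565 in stg-/- (-0.57, SE 0.09, adjusted p = 0.00191). Lin7a, a scaffold of presynaptic and postsynaptic membranes, ran from 2553 to 3209 and from 1988 to 2148 (-0.49, SE 0.09, adjusted p = 0.00621). Ppfia4, a liprin of the active zone, ran from 302 to 384 and from 147 to 290 (-0.77, SE 0.17, adjusted p = 0.0227). The list lay low, with 22 of 66 above 0 (33.3%, against 52.3% of all probe sets) and a median of -0.06. In tg cerebellum 1 rose, the RIM protein gene Rims4, from 161 to 188 in tg+/+ and from 231 to 286 in tg-/- (0.53, SE 0.12, adjusted p = 0.0450). In lh cerebellum and in forebrain 0 passed in any line. Cadps2 (-0.29, adjusted p = 0.00441) and Lin7a (-0.26, adjusted p = 0.0123) also fell by the mean of the 3 lines. Between tissues 20 of 69 (29.0%) were higher in cerebellum, against 32.4% of all probe sets, led by Cadps2 (1.73) and Lin7a (1.62), and 29 (42.0%) were lower, against 25.8%, led by Rab3b (-3.28) and Stxbp6 (-2.98).

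Members near the mutated genes were looked at apart. Unc13a and Rab3a lie within 20 Mb of Cacna1a, the gene of tg, in the RefSeq annotation. Unc13a lay at -0.13 and Rab3a at 0.07 in tg cerebellum, and neither passed. No member lay within 20 Mb of Cacng2 or Cacnb4.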

How the data were processed

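RNA was read on 36 Affymetrix arrays of 1 colour, each with 45101 probe sets. The authors deposited signal intensities on a linear scale. No source used here names the tool that made them. The deposited intensities share a scale, with a 2% trimmed mean of 150 on each array. The value used here was log2(signal + 2.98), the constant being the 10th percentile of all values. It shrinks changes near the floor. The 64 control probe sets were left out, and a filter kept the 27022 probe sets of each fit whose mean exceeded the 40th percentile. Array medians spanned 0.326, under a limit of 0.5, so no quantile normalization was applied. Comparisons used limma 3.58.1 under R 4.3.3 (intensity trend, two-sided moderated tests, Benjamini-Hochberg adjustment over all probe sets, called at 0.05). A fit over the 18 arrays of each tissue gave the genotype effects, and a fit over all 36 gave tissue and interaction effects. The script was tested on simulated data. No detection calls were used, and the number of arrays limits the precision. P-values measure the spread between these arrays, because separate animals are not stated clearly for every array, nor is a shared animal for both tissues.

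The members and the lists were chosen with earlier results of these data known. Every member was named. Single arrays were given for members called for genotype and ranges for the 6 largest tissue differences each way. Comparisons with fewer than 3 called members had their 3 smallest p-values named, as were at most 4 called genes of the other release list. Replicate numbers of cerebellum arrays come from the labels, and forebrain numbers mostly follow record order and pair nothing. Same-numbered cerebellum arrays correlated, as deviations from group means, at 0.156, 0.188 and 0.380 in stg, all over 0.1. They were therefore read as pairs in a separate fit blocked on them. In stg, replicate 3 of each genotype was its only cerebellum array in the second run of records. The correlation of 0.380, that of replicate 3, therefore cannot be told apart from a shift between runs. The SEs and adjusted p-values above ignore these pairs unless the blocked fit is named. Alternatives are given in the closing section.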

Additional observations from a re-analysis of the deposited data

Results flagged for a closer look

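Doc2b, the calcium sensor, differed in its genotype effect among the 3 lines in cerebellum, with an adjusted p of 0.00202 in limma's moderated F test. Its log2 change was 0.66 in stg, with 3 of 3 -/- arrays above all +/+ arrays, and -0.44 in lh, with 3 of 3 below. The dimmer Doc2b probe set lay at 0.48 in stg and -0.09 in lh, and passed in neither.

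The stg effect on Doc2b was larger in cerebellum than in forebrain by 0.77 on the log2 scale, and by 0.44 with its dimmer probe set, which did not pass. Slc17a6, the vesicular glutamate transporter VGLUT2, showed a difference of 0.92 in the same test of cerebellum against forebrain. Its other probe set gave 0.68 and did not pass. Without the 3 forebrain arrays high in Gh and Prl, which leaves 1 stg+/+ forebrain array, neither passed, although the differences stayed at 0.73 and 1.04.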

How the results depend on the processing

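The called members in stg cerebellum, 5 in all, numbered 10 with the run of records as a block within lines, 11 with the replicate block, 3 with the 6 arrays of the line fitted alone, and 4 to 5 when 1 array was left out. The mean effect in cerebellum called 6, with 12 under the run block, 13 under the replicate block and 5 to 6 with 1 array left out. In tg cerebellum the count of 0 became 1 (Cplx2) with the mean over probe sets, and stayed at 0 with any array left out. In lh cerebellum it became 2 (Doc2b and Syt2) under the run block, 3 (with Unc13c) under the replicate block and 1 (Syt2) with the mean over probe sets. In tg and lh 1 same-numbered pair each correlated under 0.1 (0.0404 and 0.0948), so the numbers there are not read as pairs. The test among lines called 1, then 2 under the run block, 3 under the replicate block and 1 to 2 with 1 array left out, where Syt4 joined without stg-/- replicate 2. The stg difference between tissues called 2, and 0 without the 3 Gh and Prl arrays. The tissue difference called 32, and 30 to 32 with 1 array left out. None of the 25 changes of single members recomputed, those called for genotype or among the largest between tissues, reversed. Pclo was not among them, and its tissue difference turns with the probe set. Doc2b and Slc17a6 passed in stg cerebellum in 15 of 15 settings, Synpr in 14, Rab3c in 13 and Rims1 in 9. For the mean effect Slc17a6, Syn3, Synpr, Syt2 and Unc13c passed in 23 of 23 and Snap25 in 12. The causes of these differences were not tested. Signals near the floor limit Doc2a, Syt5, Stx1a and Sv2c in cerebellum.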
